A study of Arabidopsis thaliana with 18 samples.

Results

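Whole Arabidopsis thaliana seedlings of the mutant ahl10-1 and of the wild type (WT, accession Col-0) were compared after 96 h at a water potential of -0.7 MPa, with 3 poly(A)-selected RNA-seq libraries in each group. These 6 libraries are part of a set of 18, in which ahl10-1, rrp6l1-2 and WT were each sampled at low water potential (stress) and at -0.25 MPa (control). All loci of the deposited count tables entered the comparison, and 22795 of 33602 had enough reads to be tested. Seedlings were grown in continuous light on agar without sugar. Day 7 is given as the transfer day of all groups, control included. Seedlings of the stress groups were moved to agar infused with polyethylene glycol, which withdraws water from the medium without entering the plant. All groups were harvested at day 11, and per the series' design text each of the 3 libraries came from its own experiment. The mutant is 1 line, so a difference between the groups is one between this line and Col-0. In RNA from whole seedlings, fewer cells of a type and less RNA per cell cannot be told apart.

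AHL10 belongs to the AT-hook motif nuclear localized (AHL) proteins, which bind the narrow groove of A/T-rich DNA through an AT hook and assemble into complexes through a second domain called PPC. Plants have a family of such proteins, many of them linked to growth, flowering and the silencing of repeats. AHL10 is known as a regulator of growth at low water potential and as a target of HAI1, a protein phosphatase of the abscisic acid pathway. RRP6L1, mutated in the other line, is related to a catalytic subunit of the nuclear RNA exosome.

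The libraries held 57996104 to 68555138 reads, and both ends of that range were WT stress libraries. No 2 replicates of either group agreed within sampling noise, with a chi-square of 16.0 to 65.9 per gene. In a principal component analysis of the 6 stress libraries the first component, with 26.8% of the variance, set ahl10-1 library 3 (-40.2) apart from the rest (-12.7 to 28.3). The second, with 21.7%, placed the ahl10-1 libraries at 11.4 to 20.5 and the WT libraries at -35.1 to -1.92. One library outside the comparison, control library 1 of ahl10-1, differed from the rest of its group in several shoot meristem genes described below. Whether it did so more than in other genes was not counted. It enters the fit through the estimate of spread.

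Few transcripts differed. At an adjusted p under 0.05 in edgeR's quasi-likelihood test, 8 genes were called, 0.0351% of those tested, of which 3 rose and 5 fell in ahl10-1 at stress. They were AHL10 itself, a ribosomal protein gene, 4 annotated pseudogenes and 2 noncoding RNA genes. At an unadjusted p under 0.05 there were 991 genes, or 4.35%. The central 90% of all log2 fold changes lay between -0.37 and 0.30, with a median of 0.01. Of 18790 genes with a mean log2 CPM (reads scaled to the library total) of at least 1, 7 were at least 2-fold higher and 24 at least 2-fold lower in ahl10-1.

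Of the 8 genes called by edgeR 2 were protein-coding, while protein-coding genes made up 94.9% of the genes tested (21637 genes). Among 459 pseudogenes 4 were called by edgeR, and among 459 noncoding RNA genes 2 were. The other tools called a larger share of protein-coding genes, 14 of 27 by DESeq2 and 73 of 85 in the authors' deposited table. The loci without protein were also low: the median WT level at stress was 0.809 CPM for pseudogenes and 2.15 CPM for noncoding RNA genes, against 16.7 CPM for protein-coding genes.

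AHL10 (AT2G33620, chromosome 2, 14234026 to 14236883) fell in ahl10-1 but was still read in every library. It had 32.6, 27.7 and 28.7 CPM in the 3 ahl10-1 libraries at stress, against 62.4, 62.5 and 64.6 CPM in the 3 WT libraries. Every ahl10-1 library lay below every WT library, and the spread within either group was a small part of the gap. The log2 fold change was -1.09 (standard error, SE, 0.076; edgeR adjusted p = 1.61e-06). At control the gene averaged 22.8 ± 2.34 CPM in ahl10-1 and 45.9 ± 0.706 CPM in WT (SD, n = 3 each), a log2 fold change of -1.01. Counts per gene do not tell whether the remaining reads come from whole transcripts. Of the 5 annotated genes on each side of AHL10, 7 had enough reads for the test and 0 were called by edgeR, with a smallest adjusted p of 0.996. One of them, SWI3B (a subunit of chromatin remodelling complexes), had an unadjusted p under 0.05, at a log2 fold change of 0.14. AT2G33630, which overlaps the end of AHL10 by 51 bases, had a log2 fold change of 0.00 (SE 0.063).

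Because AHL proteins bind A/T-rich DNA, the sequences around the annotated starts of the called genes were read from the reference genome. The windows below hold 250 bases before the start and 50 from the start on, 5' to 3' on the gene's strand, in RefSeq's TAIR10.1 assembly. Capitals mark runs of at least 10 bases made only of A and T. Shown are the called gene with the smallest p (AT5G35935, chr5:14089842-14090141, minus strand), the one with the largest fall (AT1G67105, chr1:25057229-25057528, plus strand), the protein-coding gene called beside AHL10 (AT5G48760, chr5:19772740-19773039, minus strand) and the retrotransposon SADHU3-2 (chr3:14750245-14750544, minus strand).
AT5G35935: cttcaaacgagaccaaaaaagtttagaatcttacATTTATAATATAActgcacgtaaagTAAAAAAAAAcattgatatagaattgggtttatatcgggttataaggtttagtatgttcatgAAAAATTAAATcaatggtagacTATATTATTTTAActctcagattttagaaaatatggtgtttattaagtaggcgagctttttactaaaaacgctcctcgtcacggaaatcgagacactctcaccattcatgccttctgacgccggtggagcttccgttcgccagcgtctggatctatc
AT1G67105: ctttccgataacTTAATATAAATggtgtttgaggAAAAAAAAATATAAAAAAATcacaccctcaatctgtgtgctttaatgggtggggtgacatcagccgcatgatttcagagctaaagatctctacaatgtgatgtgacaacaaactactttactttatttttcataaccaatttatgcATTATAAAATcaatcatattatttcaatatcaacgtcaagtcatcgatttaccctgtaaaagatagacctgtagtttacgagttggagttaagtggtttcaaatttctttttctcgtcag
AT5G48760: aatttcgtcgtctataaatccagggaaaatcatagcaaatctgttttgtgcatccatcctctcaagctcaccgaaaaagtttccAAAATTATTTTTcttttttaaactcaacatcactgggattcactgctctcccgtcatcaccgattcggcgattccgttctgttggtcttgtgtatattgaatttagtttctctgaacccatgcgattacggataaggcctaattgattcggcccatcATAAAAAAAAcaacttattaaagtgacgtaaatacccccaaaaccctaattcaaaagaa
SADHU3-2: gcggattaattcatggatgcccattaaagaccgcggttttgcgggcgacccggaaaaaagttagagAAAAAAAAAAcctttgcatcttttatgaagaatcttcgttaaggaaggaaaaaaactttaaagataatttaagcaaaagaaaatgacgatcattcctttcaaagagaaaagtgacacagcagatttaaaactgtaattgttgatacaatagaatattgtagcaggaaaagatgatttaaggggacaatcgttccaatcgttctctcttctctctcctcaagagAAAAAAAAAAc

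All 8 windows of the called genes held such a run, and so did 86.0% of the 22551 windows of tested genes. The share of A and T was 65.0% at AT5G35935, 67.7% at AT1G67105, 62.3% at AT5G48760 and 65.3% at SADHU3-2, beside a median of 68.0% over all windows. AHL10's own window had 71.3%. Of the called genes whose windows are not shown, AT3G29120 had 70.0%, AT2G05914 71.7% and AT5G44925 63.7%, so called genes lay on both sides of the median. A run of these letters is a description of the window and does not place a protein there.

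The 3 genes that rose were pseudogenes with little or no signal in WT. AT5G35935 (chromosome 5, 14083388 to 14089891) had 30.3, 28.4 and 28.7 CPM in ahl10-1 at stress, against 2.98, 2.72 and 1.82 CPM in WT. The ahl10-1 values were close together and each was far above the highest WT value. The log2 fold change was 3.53 (SE 0.171; edgeR adjusted p = 1.85e-08), the smallest p of the comparison. AT3G29120 (chromosome 3, 11098505 to 11099198) had 4.92, 4.31 and 4.24 CPM in ahl10-1, against 0.803, 0.762 and 1.02 CPM in WT. Its log2 fold change was 2.38 (SE 0.170; edgeR adjusted p = 1.61e-06). Up to 20.5% of its reads in a library mapped to several places, so its level partly depends on how such reads were shared out.

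AT5G44925 (chromosome 5, 18142274 to 18146632) had 0 reads in all 3 WT stress libraries and 63 in the 3 ahl10-1 stress libraries together. It stood at 0.347, 0.377 and 0.258 CPM in ahl10-1. With the 3 WT libraries set to a joint floor of 3 reads, it was at least 21.8-fold higher in ahl10-1 (edgeR adjusted p = 0.0101). At control it again had 0 reads in WT, and 95 in ahl10-1. Its call was lost when ahl10-1 stress library 2 or WT stress library 2 was left out.

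Among the 5 genes that fell, 2 were noncoding RNA genes. AT1G67105 (chromosome 1, 25057479 to 25058264) had 4.59, 4.94 and 4.09 CPM in ahl10-1 at stress, against 84.3, 65.7 and 26.3 CPM in WT. The ahl10-1 libraries were uniform, while the WT libraries ranged widely, and the lowest of them was still far above ahl10-1. The log2 fold change was -3.69 (SE 0.341; edgeR adjusted p = 0.000197). AT2G05914 (chromosome 2, 2263124 to 2264543) is annotated as a natural antisense transcript of AT2G05915, which it overlaps by 450 bases. It had 0.404, 0.314 and 0.343 CPM in ahl10-1, against 2.19, 2.78 and 3.47 CPM in WT, with no overlap, at a log2 fold change of -2.98 (SE 0.312; edgeR adjusted p = 0.000241). AT2G05915 had too few reads for the test. How strand was treated in the counting is not stated in the labels or headers, and without it reads of the pair cannot be told apart.

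The remaining members were AT5G48760 and SADHU3-2. AT5G48760 (chromosome 5, 19771099 to 19772789) encodes a protein of the ribosomal protein L13 family, a component of the large ribosomal subunit. It had 51.9, 46.1 and 48.0 CPM in ahl10-1 at stress, against 75.1, 70.7 and 65.6 CPM in WT. The groups did not overlap, and the fold change was small but steady, at -0.53 on the log2 scale (SE 0.067; edgeR adjusted p = 0.00228). SADHU3-2 (AT3G42658, chromosome 3, 14749400 to 14750294) belongs to a family of noncoding retrotransposons, and in the annotation it is recorded as methylated and silent in some natural accessions. It had 1.37, 1.04 and 1.48 CPM in ahl10-1, against 6.65, 4.06 and 3.6 CPM in WT. The log2 fold change was -1.88 (SE 0.258; edgeR adjusted p = 0.00591). The call was lost without ahl10-1 stress library 2.

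**Figure D1:**
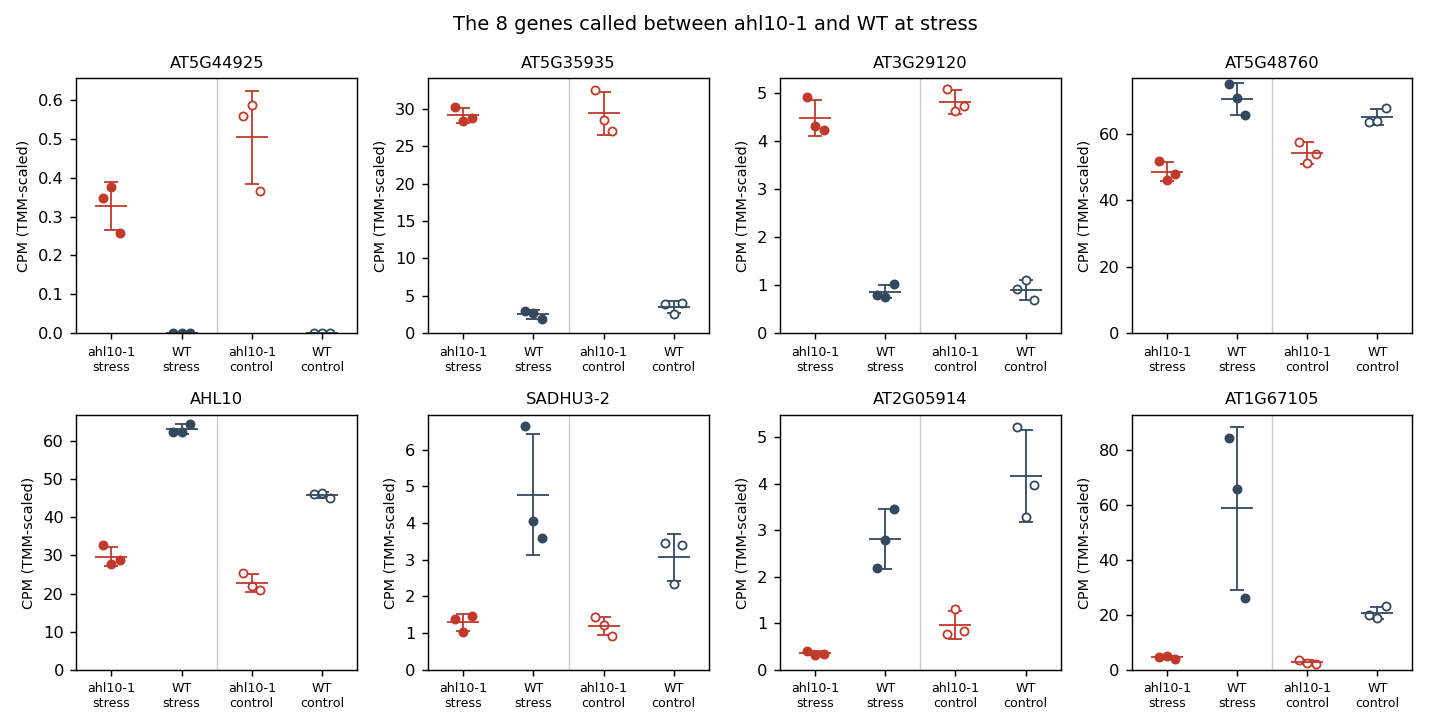
Level of each of the 8 called genes in CPM (linear axes from 0) in ahl10-1 and WT at stress (filled points) and at control (open points). Points are libraries, and the line and bar are the mean and SD of 3 libraries; in all 8 panels the ahl10-1 stress libraries lie clear of the WT stress libraries, and AHL10 is at 27.7 to 32.6 CPM in ahl10-1 beside 62.4 to 64.6 CPM in WT.

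Whether the neighbours of a called gene moved with it was examined for the nearest 2 annotated genes on each side, a choice made after the values were seen. AT5G35940, a mannose-binding lectin gene, starts 682 bases from AT5G35935 and is transcribed away from it. It had 3.71, 2.92 and 1.97 CPM in ahl10-1, against 6.90, 8.11 and 4.80 CPM in WT, so it was lower without overlap while its neighbour was higher. Its log2 fold change of -1.20 (SE 0.306) missed the threshold (edgeR adjusted p = 0.692). AT3G29140, which lies 6547 bases from AT3G29120 with 1 gene between, had 0.736, 0.596 and 0.498 CPM in ahl10-1, against 0.109, 0.155 and 0.230 CPM in WT (log2 fold change 1.89; edgeR adjusted p = 0.591). The gene between them, AT3G29130, had a log2 fold change of -0.15 (SE 0.098). ARAD2, 114 bases from AT5G44925, had a log2 fold change of 0.23 (SE 0.077; edgeR unadjusted p = 0.0103, adjusted p = 0.996). Other tested neighbours lay near 0, among them AT5G35930 (0.00), AT2G05910 (0.03), AT5G48775 (-0.02) and AT3G42660 (-0.03). Further from 0 were AT1G67120 (-0.24), CHR38 (-0.22) and AT5G44940 (-0.44, SE 0.622). Their unadjusted p-values in edgeR's test were 0.0219, 0.0252 and 0.494, in that order. The edgeR adjusted p of each of these genes was at least 0.996.

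The plot of fold change against level shows how narrow the distribution was beside these loci. Genes with high expression lay close to 0, and the far points on either side were mostly of low level.

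**Figure D2:**
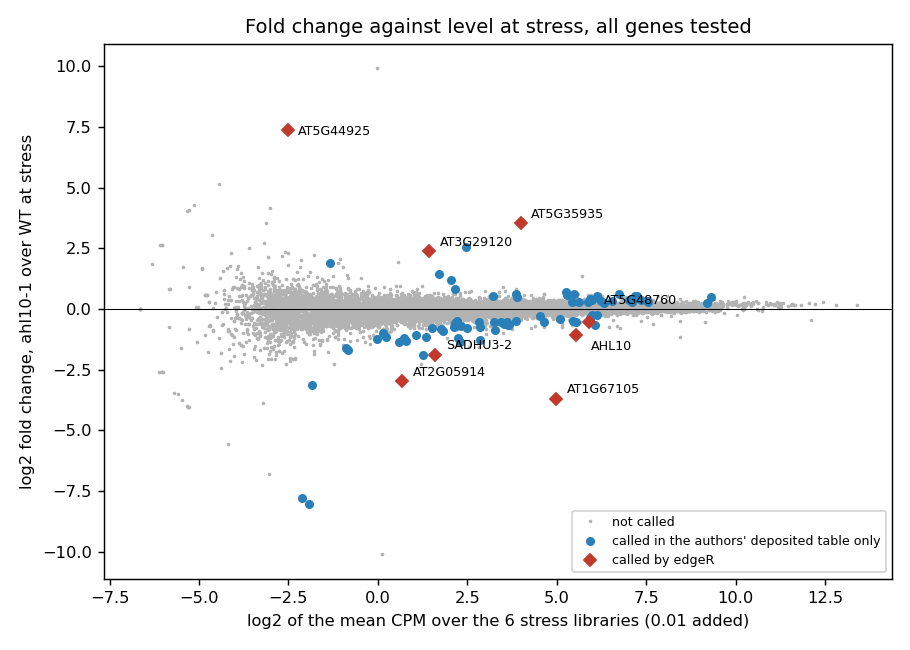
Log2 fold change of ahl10-1 over WT at stress (vertical axis) against the log2 mean CPM of the 6 stress libraries (horizontal axis) for all 22795 genes tested. Red diamonds are the 8 genes called by edgeR, blue circles those called in the authors' deposited table and not by edgeR, and grey points the rest, of which the central 90% lie between -0.37 and 0.30.

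The same contrast without stress used other libraries. At control 6 genes were called by edgeR, 0.0263% of those tested, and all 6 were among the 8 called at stress. These were AT5G35935, AHL10, AT3G29120, AT1G67105, AT2G05914 and AT5G44925, each in the direction it had at stress. Without ahl10-1 control library 1 the count was 27, with STM, KNAT1 and CUC2 of the shoot meristem among them. STM and CUC2 were high in that library, so their calls without it follow in part from leaving it out. AHL10 itself stood at 25.4 CPM in that library, against 45.1 to 46.5 CPM in WT at control. AT5G35935 averaged 29.4 ± 2.83 CPM in ahl10-1 and 3.5 ± 0.785 CPM in WT at control (SD, n = 3 each), and AT1G67105 averaged 2.67 ± 0.697 CPM in ahl10-1 and 20.7 ± 2.22 CPM in WT. The other two were not called there: AT5G48760 had a log2 fold change of -0.26 (SE 0.067; edgeR adjusted p = 0.793) and SADHU3-2 one of -1.35 (SE 0.259; edgeR adjusted p = 0.194).

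The difference between the stress and the control contrast was tested as an interaction. By edgeR 0 genes were called (0% of those tested), with 316 (1.39%) at an unadjusted p under 0.05. limma-voom called 0, and DESeq2 called 3. For AT5G48760 the interaction was -0.27 on the log2 scale, with an unadjusted p of 0.0115 and an adjusted p of 1 in edgeR's test. This gene was picked for its call at stress, and the stress difference is part of the interaction. Of the 3 genes called by DESeq2, 2 are chloroplast loci with 0 CPM in ahl10-1 at control. The other is AT3G25830, a cineole synthase gene, for which up to 99.9% of the reads mapped to several places.

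**Figure D3:**
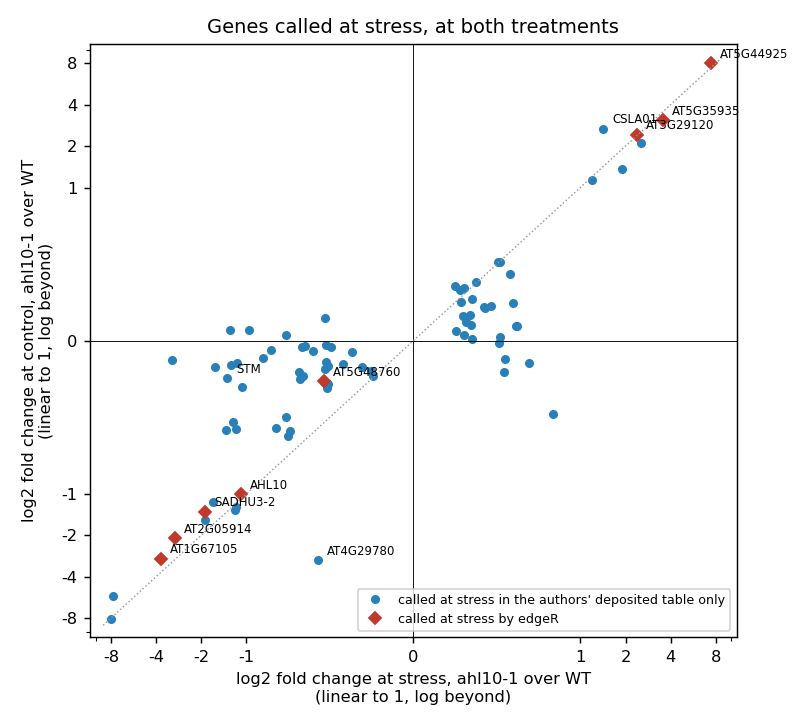
Log2 fold change of ahl10-1 over WT at stress (horizontal axis) and at control (vertical axis), both linear up to 1 and logarithmic beyond, for the 85 genes called at stress in the authors' deposited table. Red diamonds are the 8 of them called by edgeR and blue circles the rest; 76 of the 85 have the same direction on both axes, and AT4G29780, at -0.57 at stress, is at -3.03 at control, where 1 WT library had 144 CPM.

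Other tools called more genes from the same libraries. DESeq2 called 27 (0.118%), among them the 8 above, with 12 higher and 15 lower in ahl10-1. The authors' deposited table lists 85 genes at an adjusted p under 0.05 (0.358% of those with one), 35 higher and 50 lower, and the 8 are among these too. In the counts all 85 had the direction of the authors' deposited table and did not overlap between the groups. They were called from these same libraries, so this adds no independent evidence. Over all genes tested 6.24% were higher and 5.69% lower without overlap. For all 85 the fold change in the authors' deposited table was smaller than the one fitted here. AT1G67105 is given as -0.37 in the authors' deposited table, AT5G35935 as 2.13 and AT3G29120 as 1.01 on the log2 scale, and 2 of the 85 reach 2-fold there. Of the 85, 76 had the same direction in the control libraries.

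Some of the genes called by DESeq2 and not by edgeR were noncoding or nearly absent from the mutant. Others were protein-coding genes of higher level. AT1G63070, for a protein with pentatricopeptide repeats (a family that acts on organelle RNA), had 0 reads in the 3 ahl10-1 stress libraries and 88 in the 3 WT stress libraries. With the 3 ahl10-1 libraries set to a joint floor of 3 reads, it was at least 28.2-fold lower in ahl10-1 (DESeq2 adjusted p = 0.000108, edgeR adjusted p = 0.0907). The pseudogene AT3G28915 had 0 reads in ahl10-1 and 104 in WT, at least 33.4-fold lower (DESeq2 adjusted p = 8.08e-05, edgeR adjusted p = 0.124). At control AT3G28915 had 0 reads in ahl10-1 and 105 in WT. AT1G63070 had 2 reads in ahl10-1 and 110 in WT at control, so both genes were at or near 0 in the mutant at either treatment.

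The noncoding RNA gene AT4G04223 had 9.54, 10.0 and 8.38 CPM in ahl10-1 at stress, against 2.72, 0.699 and 1.28 CPM in WT. It was higher in each ahl10-1 library than in any WT library (DESeq2 adjusted p = 5.50e-05, edgeR adjusted p = 0.0919). AT5G38005, another noncoding RNA gene, had 5.85, 6.24 and 5 CPM in ahl10-1, against 3.38, 2.32 and 1.74 CPM in WT (DESeq2 adjusted p = 0.000114, edgeR adjusted p = 0.0919). TAS3b, a source of trans-acting small interfering RNAs that target auxin response factors, had 0, 0.0628 and 0.103 CPM in ahl10-1, against 0.517, 0.373 and 0.542 CPM in WT. Its ahl10-1 levels lie near the floor of 0.0438 to 0.0517 CPM that 3 reads give (DESeq2 adjusted p = 0.0303, edgeR adjusted p = 0.413). MEE65, named for the arrest of embryos in its mutant, had 0.202, 0.345 and 0.240 CPM in ahl10-1, against 0.817, 0.886 and 0.838 CPM in WT (DESeq2 adjusted p = 0.00121, edgeR adjusted p = 0.0919). With the replicate number added to the edgeR fit MEE65 was called (adjusted p = 0.0401).

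Among protein-coding genes of higher level, AT4G18440, for an enzyme of the aspartase family, had 138, 110 and 135 CPM in ahl10-1 at stress, against 78.7, 74.4 and 97.0 CPM in WT. The groups did not overlap, at a log2 fold change of 0.62 (SE 0.113; DESeq2 adjusted p = 0.000814, edgeR adjusted p = 0.0919), while at control it was 0.10 (SE 0.113). The cytochrome P450 gene CYP71B19 had 15.5, 18.1 and 18.4 CPM in ahl10-1, against 12.1, 12.7 and 11.7 CPM in WT. Its log2 fold change was 0.51 at stress and 0.51 at control. ALPHA-DOX2, whose enzyme oxidises fatty acids, had 69.4, 74.1 and 68.2 CPM in ahl10-1, against 52.6, 56.4 and 57.1 CPM in WT (DESeq2 adjusted p = 0.00559, edgeR adjusted p = 0.170).

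Most listed genes of jasmonate synthesis and response had small positive fold changes in ahl10-1 at stress, none of which was called. Jasmonates are fatty acid-derived hormones of wounding and defence that are made in the chloroplast and peroxisome, and they act by releasing MYC factors from JAZ repressors. Of 27 listed genes tested, 24 had a positive log2 fold change, with a median of 0.17 beside 0.01 over all genes. In 8 members (29.6%) every ahl10-1 library was higher than every WT library, beside 6.24% of all genes, and in 0 every one was lower. None of the 27 was called by edgeR and DESeq2 called 0. In edgeR's test 5 of the 27 had an unadjusted p under 0.05, beside 4.35% of all genes. The authors' deposited table calls 3 of them, AOS, AOC1 and VSP2. At control the median was -0.01.

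The 3 genes called in the authors' deposited table, from these same libraries, are the synthesis enzymes AOS and AOC1 and the response gene VSP2. AOS, the allene oxide synthase that commits fatty acid hydroperoxides to jasmonate, had 173, 155 and 183 CPM in ahl10-1, against 120, 106 and 131 CPM in WT at stress. Its log2 fold change was 0.52 (SE 0.162), with an unadjusted p of 0.00578 and an adjusted p of 0.996 in edgeR's test, and 0.39 in the authors' deposited table (adjusted p = 0.00103). AOC1, an allene oxide cyclase, had 57.1, 37.6 and 45.5 CPM in ahl10-1, against 29.8, 26.1 and 31.0 CPM in WT. VSP2, a vegetative storage protein with acid phosphatase activity and a classic jasmonate-responsive gene, had 719, 738 and 777 CPM in ahl10-1, against 509, 427 and 627 CPM in WT. For none of the 3 did the stress libraries overlap. At control AOS averaged 125 ± 14.0 CPM in ahl10-1 and 122 ± 9.03 CPM in WT, and VSP2 averaged 78.7 ± 7.04 CPM in ahl10-1 and 79.4 ± 12.6 CPM in WT (SD, n = 3 each). The interaction had an unadjusted p of 0.0474 for AOS, 0.0168 for AOC1 and 0.0428 for VSP2, none of them past the adjusted threshold in edgeR's test. The 3 genes were picked for their difference at stress, which is part of the interaction. Their unadjusted p-values are therefore no test of an effect limited to stress.

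Another 2 defence-related genes, picked from the authors' deposited table because they were high in these libraries, add no independent evidence to the list. CORI3, a cystine lyase gene named for its induction by the jasmonate mimic coronatine, had 169, 175 and 192 CPM in ahl10-1, against 126, 105 and 136 CPM in WT. AT1G66100, a thionin gene, had 52.7, 47.0 and 40.6 CPM in ahl10-1, against 32.3, 28.7 and 32.9 CPM in WT. Both are called in the authors' deposited table (adjusted p = 0.000945 and 0.000604) and neither by edgeR (adjusted p = 0.996 for each). Of the listed JAZ repressor genes, JAZ1, JAZ6, JAZ8 and JAZ10 had log2 fold changes between 0.01 and 0.06. They do not stand for the other listed JAZ genes, whose values are not given here. The log2 fold change of the receptor gene COI1 was 0.02. MYC2, the main transcription factor of the pathway, averaged 92.6 CPM in ahl10-1 and 75.4 CPM in WT at a log2 fold change of 0.30. PDF1.2, a defensin gene of the ethylene-dependent branch, had the lowest fold change of the list, at -3.86, with 0.0114 CPM in ahl10-1 and 0.186 CPM in WT, near the floor.

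The authors' deposited table also calls STM and ZPR2, genes of the shoot apical meristem, as lower in ahl10-1 at stress. STM, a homeodomain protein that keeps the shoot meristem undifferentiated, had 2.38, 2.17 and 3.71 CPM in ahl10-1, against 6.37, 7.94 and 6.59 CPM in WT. The authors' deposited table calls it (log2 fold change -0.59, adjusted p = 7.80e-07), while edgeR gave -1.34 (SE 0.596; adjusted p = 0.996). ZPR2, a small leucine zipper protein that pairs with HD-ZIP III factors, had 0.520, 0.580 and 0.652 CPM in ahl10-1, against 1.61, 1.43 and 1.08 CPM in WT. A list of 25 meristem and organ boundary genes was drawn up after these values were seen and includes both, so its counts are a description only. Of its 23 tested members 4 had a positive log2 fold change and 8 (34.8%) were lower without overlap, beside 5.69% of all genes. The median was -0.145. None was called by edgeR and DESeq2 called 0. In edgeR's test 3 of the 23 had an unadjusted p under 0.05, beside 4.35% of all genes.

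At control 1 ahl10-1 library differed from the rest of its group in many of these genes. STM had 15.3, 2.35 and 1.88 CPM in the 3 ahl10-1 control libraries and 9.22, 8.14 and 5.88 CPM in WT, so library 1 was above all WT libraries and libraries 2 and 3 below all of them. CUC2, a NAC factor that defines organ boundaries, had 1.28, 0.254 and 0.238 CPM in ahl10-1 at control and 0.879, 0.822 and 1.02 CPM in WT. In 14 of the 23 members the ahl10-1 control libraries 2 and 3 lay below all WT control libraries, and in 12 of these library 1 lay above all of them. The 50 genes that the authors' deposited table gives as lower at stress were counted in the same way: libraries 2 and 3 were below all WT control libraries in 45, and in 27 of those library 1 was above all of them. These counts were not made over all genes tested, so whether library 1 stood apart in these genes in particular is not shown. The part of this library in the stress result was not tested beyond leaving it out.

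Without that library 10 genes were called at stress by edgeR, the 8 above and 2 more, an alternative added after the data were seen. The 2 were bHLH11, a helix-loop-helix factor, at -1.08 (SE 0.167; adjusted p = 0.0214) and AT5G53486, of unknown function, at -1.27 (SE 0.188; adjusted p = 0.0157). In that fit STM at stress had a log2 fold change of -1.35 with an SE of 0.251 and an edgeR adjusted p of 0.0961. At control 27 genes were then called, among them STM (-1.87, adjusted p = 0.0265), KNAT1 (-0.55, adjusted p = 0.0381), a second homeobox gene of the meristem, and CUC2 (-1.87, adjusted p = 0.0394). That library had drawn attention by its high STM and CUC2, so these control p-values are no independent test. With all libraries in the fit, edgeR did not call STM, KNAT1 or CUC2 at control.

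**Figure D4:**
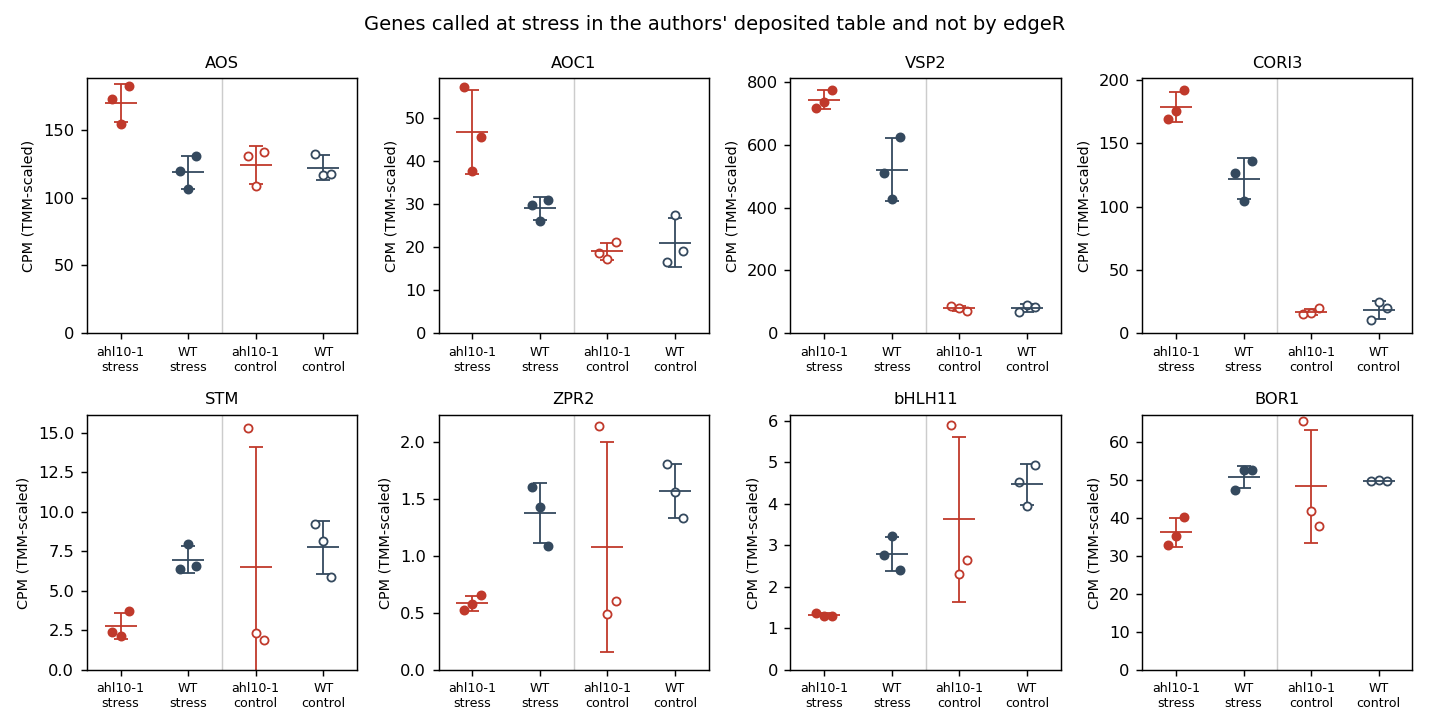
Level in CPM (linear axes from 0) of 4 jasmonate-related genes (top row) and of STM, ZPR2, bHLH11 and BOR1 (bottom row) in ahl10-1 and WT at stress (filled) and at control (open), with the mean and SD of 3 libraries. The stress groups do not overlap in any panel, and in the bottom row 1 open red point, ahl10-1 control library 1 (15.3 CPM for STM), stands above the other two.

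Of the 50 lower genes in the authors' deposited table, 8 more were picked after their values were seen and stand for no theme. BOR1 and NIP6;1, which move boron into the xylem and into young shoot tissue, were both lower. BOR1 had 32.9, 35.3 and 40.4 CPM in ahl10-1 at stress, against 47.5, 52.6 and 52.6 CPM in WT, and NIP6;1 had 8.58, 8.71 and 11.3 CPM in ahl10-1, against 12.9, 16.5 and 16.4 CPM in WT. The auxin-conjugating GH3.5 and GH3.6 had 19.1 to 21.7 CPM and 34.6 to 42.5 CPM in ahl10-1, against 26.6 to 31.4 CPM and 46.9 to 59.1 CPM in WT. UMAMIT28 and UMAMIT32, of a family of amino acid exporters, had 9.02 to 11.6 CPM and 0.852 to 1.11 CPM in ahl10-1, and 14.1 to 14.8 CPM and 1.99 to 2.69 CPM in WT. AT2G19910 and AT2G19920, neighbouring genes for RNA-dependent RNA polymerases, averaged 3.56 and 2.44 CPM in ahl10-1, against 5.65 and 4.56 CPM in WT. None of these 8 was called by edgeR, and all had adjusted p-values of 0.996.

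Of the 35 higher genes in the authors' deposited table, 4 were picked in the same way. ATBETAFRUCT4, a vacuolar invertase that splits sucrose, had 166, 183 and 202 CPM in ahl10-1 at stress, against 136, 138 and 152 CPM in WT. Its log2 fold change was 0.37 at stress and 0.38 at control (edgeR adjusted p = 0.829 and 0.793). TDT, the vacuolar malate and fumarate transporter, had 108, 106 and 100.0 CPM in ahl10-1, against 79.3, 85.3 and 82.7 CPM in WT. FUM2, the cytosolic fumarase, had 79.1, 84.3 and 87.2 CPM in ahl10-1, against 68.8, 65.0 and 63.5 CPM in WT. NCED4, a carotenoid-cleaving dioxygenase of the plastid, had 152, 184 and 186 CPM in ahl10-1, against 124, 137 and 118 CPM in WT. The 4 are called in the authors' deposited table and not by edgeR.

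The abscisic acid and osmotic adjustment genes, which dominate the response to low water potential, differed little. Of 23 dehydration and ABA-induced genes 20 had a positive log2 fold change, with a median of 0.14, but 2 (8.7%) were higher without overlap, beside 6.24% of all genes, and 0 had an unadjusted p under 0.05. The list's median by library, relative to the WT mean, was 0.39, 0.16 and -0.08 in ahl10-1 and 0.07, 0.16 and -0.23 in WT, so the groups overlapped. RD29A averaged 65.6 CPM in ahl10-1 and 52.4 CPM in WT. Of 9 clade A PP2C phosphatases, the negative regulators of abscisic acid signalling, 0 were without overlap, and HAI1 averaged 42.8 CPM in ahl10-1 and 40.4 CPM in WT at a log2 fold change of 0.08. Of 11 tested ABA receptors 2 were higher without overlap, and the median was -0.05. In proline metabolism, where proline serves as a compatible solute, 3 of 10 genes (30.0%) were higher without overlap, at a median of 0.03. P5CS1, the enzyme that sets the rate of proline synthesis, averaged 854 CPM in ahl10-1 and 710 CPM in WT at a log2 fold change of 0.27 with an unadjusted p of 0.0565, and its relative P5CS2 averaged 165 CPM in ahl10-1 and 143 CPM in WT at 0.20 with an unadjusted p of 0.0172. None of these genes was called by edgeR or by DESeq2. At an unadjusted p under 0.05 there were 1 of 11 ABA receptors and 2 of 10 proline genes, beside 4.35% of all genes.

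Within the AHL family, AHL10 was the only one of 28 tested members to be called. Of the other 27, 4 had a positive log2 fold change, and AHL4, AHL13, AHL12 and AHL2 were lower without overlap at -0.16 to -0.30. With AHL10 that makes 5 of 28 (17.9%), beside 5.69% of all genes. This share and the family medians include AHL10, the mutated gene, whose fall comes with the genotype. The unadjusted p-values of AHL4, AHL13, AHL12 and AHL2 were 0.0667 to 0.129 in edgeR's test. The median of the family was -0.11 at stress, or -0.04 without ahl10-1 stress library 3 and -0.17 without library 1, and -0.21 at control.

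In the cell cycle and photosynthesis lists most genes had small fold changes of the same sign, and edgeR and DESeq2 called 0 members of either. Of 20 cell cycle genes 5 had an unadjusted p under 0.05, beside 4.35% of all genes. Of the 20, 1 had a positive log2 fold change and 5 (25%) were lower without overlap, beside 5.69% of all genes. The median was -0.14. CDKB1;1, a mitotic cyclin-dependent kinase, averaged 14.0 CPM in ahl10-1 and 16.7 CPM in WT at -0.25 with an unadjusted p of 0.005, and CYCB1;1, a mitotic cyclin, averaged 9.57 CPM in ahl10-1 and 11.9 CPM in WT. All 22 photosynthesis genes were positive, with a median of 0.21, and 0 had an unadjusted p under 0.05. In 6 of them (27.3%) the ahl10-1 libraries were higher without overlap, beside 6.24% of all genes. Much of that median came from 1 library: relative to the WT mean it was 0.03, 0.10 and 0.45 in ahl10-1 libraries 1, 2 and 3, and without ahl10-1 stress library 3 it was 0.08. Of 19 aquaporin genes, for channels that carry water across membranes, 17 were positive and 4 (21.1%) were higher without overlap, at a median of 0.165, and 1 had an unadjusted p under 0.05. The plasma membrane aquaporin PIP2;1 averaged 698 CPM in ahl10-1 and 563 CPM in WT.

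Over all 30 lists AHL10 was the only one of 483 tested genes called by edgeR or by DESeq2, and 22 had an unadjusted p under 0.05, a share close to the 4.35% of all genes. Iron deficiency genes had a median of 0.22 and suberin and Casparian strip genes 0.19, while the circadian clock had 0.11, sulfur starvation 0.07, and brassinosteroid and gibberellin 0.06. Flowering, heat shock, expansins with xyloglucan endotransglucosylases, glucosinolate and root hair genes had medians between 0.01 and 0.05, as had phosphate starvation and auxin genes. Type-A cytokinin response regulators, xylem and secondary wall, carbon starvation, flavonoid, and salicylate and defence genes had medians between -0.01 and -0.11. Ethylene genes had a median of -0.23, which was -0.04 without WT stress library 2. There were 6 seed storage genes with a median of -0.155 and 5 loci sensitive to DNA methylation with one of -0.26. Rapid touch and wound response genes had a median of -0.32 at stress, which ranged from -0.52 without ahl10-1 stress library 1 to -0.19 without WT stress library 2, and -1.45 at control. By library their median relative to the WT mean at stress was -0.01, -0.28 and -0.45 in ahl10-1, against -0.02, 0.10 and -0.12 in WT. In the ethylene list ACO1, an enzyme of ethylene synthesis, had the smallest p (edgeR adjusted p = 0.769).

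**Figure D5:**
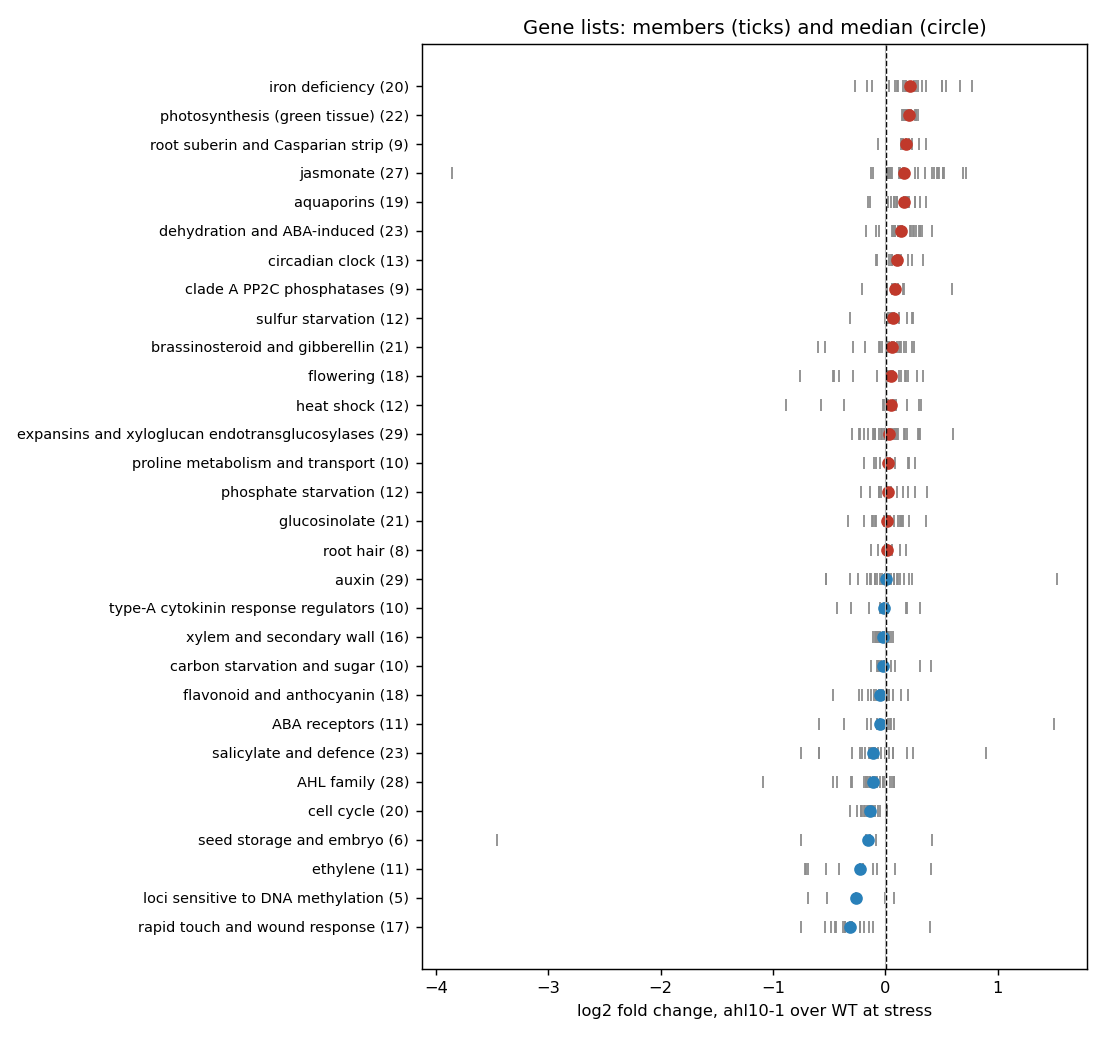
Log2 fold changes of ahl10-1 over WT at stress (horizontal axis) for the tested members of 30 gene lists (grey ticks) with the list median (circle, red where above and blue where below the median of all genes, the dashed line at 0.01). The number of members tested is in brackets; jasmonate (0.17) and photosynthesis (0.21) lie on the right and cell cycle (-0.14) and rapid touch and wound response (-0.32) on the left.

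The summed levels of organ marker lists overlapped between the groups in each case. The summed level of 22 photosynthesis genes was 62139 to 83854 CPM in ahl10-1 at stress and 59711 to 64374 CPM in WT. The 8 root hair genes summed to 63.3 to 88.8 CPM in ahl10-1 and 63.3 to 82.6 CPM in WT, the 9 suberin and Casparian strip genes to 212 to 264 CPM in ahl10-1 and 202 to 218 CPM in WT, and the 16 xylem genes to 467 to 538 CPM in ahl10-1 and 458 to 581 CPM in WT. The 6 tested seed storage genes summed to 2.47 to 4.33 CPM in ahl10-1 and 2.94 to 3.81 CPM in WT. Their part in the results was not tested.

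The rrp6l1-2 libraries at stress share the WT libraries with this comparison, so their levels are set beside it as values only. AT5G35935 had 33.0, 27.1 and 26.4 CPM in rrp6l1-2, and AT3G29120 had 5.92, 5.35 and 5.26 CPM. AT1G67105 had 28.5, 19.4 and 23.9 CPM and AT2G05914 had 1.56, 1.47 and 1.07 CPM, levels between those of ahl10-1 and most WT libraries. AHL10 had 63.8, 58.9 and 55.7 CPM in rrp6l1-2, AT5G48760 had 64.5 to 72.5 CPM and SADHU3-2 had 3.61 to 5.33 CPM. AT1G63070 and AT3G28915 had 0 reads in all 3 rrp6l1-2 stress libraries, as in ahl10-1. AT4G04223 had 20.2 to 24.4 CPM in rrp6l1-2, and STM had 1.59, 2.29 and 2.55 CPM.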

How the data were processed

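Per the file headers, each library's deposited table lists expected counts of reads for every gene, the RPKM made from them, and the fraction of those reads with several mapping places. The authors also deposited comparison tables with a log2 fold change and an adjusted p-value per gene. TAIR10 is the build in the submitters' processing notes, whose tools are CASAVA, Bowtie2, DESeq2 and bcl2fastq 1.8.4. What counted the reads, and with which strand setting, is not given in the sources used here. The deposited RPKM were not used.

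One fit of all 18 libraries was made on the rounded expected counts with edgeR 4.0.16 (glmQLFit, robust, then glmQLFTest; R 4.3.3), with TMM scaling, filterByExpr by group and Benjamini-Hochberg adjustment. Genes were called at an adjusted p under 0.05. CPM are TMM-scaled. DESeq2 1.42.0, limma-voom (limma 3.58.1), RLE scaling, plain library sizes, no filter, only the groups compared, a replicate block and leaving out each ahl10-1 or WT library in turn were alternatives. The steps were tested on simulated data. A count of 0 was read as up to 3 reads, 0.0438 to 0.0517 CPM in the 6 stress libraries, which covers counting error only.

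Names and coordinates come from RefSeq's annotation of TAIR10.1, which holds 32835 of the 33602 loci. The files give no coordinates. The 30 gene lists, with 483 of 497 loci tested, and the comparison were chosen with earlier results of these data known. By rule the text names AHL10 and its neighbours, called genes of log2 CPM of at least 1 without overlap, and the leading members of a list. Other genes, among them AT5G44925 and the genes called only by DESeq2 or the authors, were chosen after their values were seen.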

Additional observations from a re-analysis of the deposited data

Results flagged for a closer look

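Libraries outside the comparison lay beyond the WT stress libraries for 4 of the 8 called genes. In rrp6l1-2 at stress all 3 libraries lay on the ahl10-1 side of every WT stress library for AT5G35935 (mean 28.8 CPM), AT3G29120 (5.51 CPM), AT2G05914 (1.37 CPM) and AT5G44925 (0.158 CPM). Both mutants were set against the same WT libraries, and the difference between the mutants was not tested here. The share of all genes lying so in rrp6l1-2 was not counted. The 8 genes were called against these same WT libraries, so the 4 are a description and do not show shared targets. Groups of 3 libraries are too small for the test of outlying values that was set for groups of 4 or more, so none was run.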

How the results depend on the processing

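The 8 genes called at stress stayed called under RLE scaling, plain library sizes, no filter, the replicate block, limma-voom (11 called) and DESeq2, which called 27 at stress, 22 at control and 3 for the interaction. With only the 6 libraries of the groups compared 5 were called at stress, 4 of them among the 8 and MRD1 the other, and AT1G67105, AT5G48760, SADHU3-2 and AT5G44925 were lost, with fewer residual degrees of freedom. Leaving out 1 ahl10-1 or WT library gave 6 to 10 calls at stress (stress libraries, and ahl10-1 control replicate 1), 6 to 27 at control (control libraries) and 0 to 0 for the interaction. The 6 came without ahl10-1 stress replicate 2 (SADHU3-2 and AT5G44925 lost), and the 27 without ahl10-1 control replicate 1; without WT stress replicate 2, 7 were called (AT5G44925 lost). AHL10 kept its call in every alternative, at -1.18 to -1.05. No gene or count changed direction past its threshold. With the replicate block 9 genes were called at stress, MEE65 being the addition (adjusted p = 0.0401), 7 at control and 0 for the interaction. Same-numbered ahl10-1 and WT libraries correlated at 0.0115, 0.156 and 0.0715 at stress and 0.241, 0.389 and -0.303 at control. The highest values for other numbers were 0.0602, 0.054 and -0.0348 at stress and 0.126, 0.109 and 0.215 at control. Chloroplast reads were 0.369% to 0.589% in library 3 of the 6 groups. They were 0.102% to 0.263% in the rest, apart from ahl10-1 control library 1 (0.487%). The labels do not say that a number marks a shared batch, so the main fit did not pair the samples. Of the list medians, that of dehydration and ABA-induced genes ranged from 0.02 to 0.25, that of jasmonate genes from 0.10 to 0.29 and that of cell cycle genes from -0.21 to -0.10, and those of photosynthesis, aquaporin, iron, suberin, circadian, sulfur, AHL, ethylene, touch and salicylate genes also kept their sign; the medians of all other lists took either sign in some setting. With 3 libraries a group, the main p-values rest on a spread estimated over all 18 libraries, with 12 residual degrees of freedom. They do not measure the spread of the 6 compared libraries alone. Depth limits genes below about 1 CPM most.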
